A study of Ascaridia galli and Trichostrongylus colubriformis with 4 samples.

Results

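Transcripts of the roundworm *Ascaridia galli* whose best protein hit is named tau-tubulin kinase or Kelch-like protein 10 were compared between 2 libraries of whole worms. The members were taken by product name from the deposited table of the chicken worm. They were 91 of 150798 unigenes (the assembled transcripts that the table lists), of which 73 were tau-tubulin kinases and 18 were Kelch-like protein 10. Whole worms came from the intestines of slaughtered chickens and were kept in vitro in double distilled water (control) or in a water extract of *Pottia lanceolata*, a moss (treated), and mRNA caught on poly-dT beads was sequenced with 1 library per group. The labels give assay concentrations of 10, 20 and 50 mg/ml without saying which was used for the RNA, and give neither the number nor the sex of the worms in a library. The table calls its conditions A and B and does not say which one is the extract, and all ratios here are B over A, with nothing said of how the extract acted. The names of both families were chosen by their low ratios of B to A in this same table, so what follows describes 2 libraries and holds no test.

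Tau-tubulin kinases are serine/threonine kinases of the casein kinase 1 superfamily, named for the phosphorylation of the microtubule protein tau and of tubulin in mammals. In *Caenorhabditis elegans* this branch of the superfamily is much enlarged, many of its genes are expressed in sperm, and the related kinase SPE-6 is needed for the assembly of major sperm protein. Kelch-like protein 10 carries a BTB domain and Kelch repeats, and in the mouse it is a testis protein that joins the ubiquitin ligase cullin-3 to its substrates in developing sperm. Major sperm protein, the protein that drives the crawling of nematode sperm, serves here as a reference. In RNA of whole worms, fewer cells of a type and less RNA per cell cannot be told apart.

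Of the 73 tau-tubulin kinase unigenes, 70 had fewer normalized counts in B than in A. So did 75286 of all 150798 unigenes. Of the 28178 with hits in ascaridid worms, the kin of *A. galli*, as all members had, 21170 were lower. The median log2 ratio of the 73 kinases, with 1 added to both counts, was -1.54, with a middle 50% from -1.85 to -1.27. At least 2-fold lower were 61 of 73 (83.6%), against 27.3% of all unigenes and 24.0% of annotated ones (both limited, as the members were, to those reaching 20 normalized counts in A or B). At least 4-fold lower were 13 (17.8%), against 9.76% and 6.55%. A single member was at least 2-fold higher, against 35.6% of all unigenes and 27.9% of annotated ones. Under the same limit, the shares among unigenes with ascaridid hits were 30.1% at least 2-fold lower, 7.7% at least 4-fold lower and 7.48% at least 2-fold higher. The values of the members chose the family and are given as its description. Summed over the family, 88169 normalized counts in A stood against 28649 in B, a log2 ratio of -1.62.

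The 18 Kelch-like protein 10 unigenes had a similar median, -1.57, but a far wider spread, with a middle 50% from -4.14 to -0.67. Of the 18 unigenes, 16 were lower in B, 12 (66.7%) at least 2-fold and 9 (50.0%) at least 4-fold, and 1 was at least 2-fold higher. The shares to set beside these are those given above for all unigenes and for unigenes with ascaridid hits. The summed counts of the 18 were 3904 in A and 1096 in B, a log2 ratio of -1.83. For the 159 major sperm protein unigenes the median was -1.77, with 142 of 158 (89.9%) at least 2-fold lower. The median was -0.25 over the 51840 annotated unigenes whose mean reached 10 normalized counts, and -0.58 over the 27394 of them with ascaridid hits. All members passed both minimum counts, and these ratios share the same pair of libraries.

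**Figure D1:**
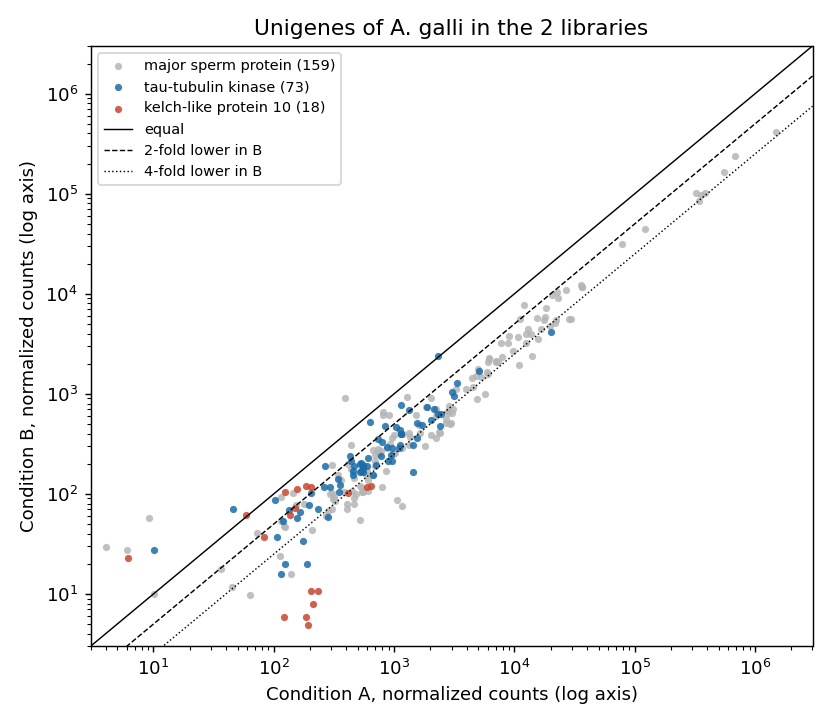
Normalized counts of each unigene in A (horizontal, log axis) and B (vertical, log axis) for tau-tubulin kinases, Kelch-like protein 10 and, as reference, major sperm protein; 1 point is 1 unigene, and lines mark equal, 2-fold lower and 4-fold lower counts. Most kinase points lie between the lines for 2-fold and 4-fold, beside those of major sperm protein at higher counts, while 6 Kelch-like protein 10 points lie far below, at 4.93 to 10.8 normalized counts in B.

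Depth was 87659960 reads in A and 69118874 in B, worked out from the steps between low values in the table. Intervals in the text are exact (Clopper-Pearson) 95% intervals of the ratio from read pairs and cover counting error alone, not variation between worms. Of the kinases, 69 had an interval wholly below 0 and 4 an interval that held 0. Of Kelch-like protein 10, 14 lay below 0, 3 held 0 and 1 lay above. The same count over all unigenes is not given here, so these counts have no background share and describe the members alone. Scaling on total counts would add 0.38 to each log2 ratio before the pseudocount, and with it both family medians stayed negative (-1.16 and -1.19). At least 2-fold lower were then 46 kinases and 9 Kelch-like protein 10 unigenes, and 22301 of 124005 unigenes were lower against 52537 higher. Lower by any amount were then 68 kinases and 15 Kelch-like protein 10 unigenes, against 49885 of the 124005 unigenes. Kinases 166013 and 103429 turned to 0.11 and 0.15 and Kelch-like protein 10 unigene 206272 to 0.13. The table gives no unigene lengths, so counts of different unigenes are not levels per length and are not compared as such.

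All 91 hits were proteins of *Ascaris suum*, the pig roundworm, or *Toxocara canis*, the canine roundworm, both ascaridids, whereas 50.9% of all annotated unigenes had a hit in an ascaridid. The 73 kinase unigenes fell on 28 proteins, 12 of *A. suum* and 16 of *T. canis*, and 17 of these were hit by several unigenes. Identity to the hit ran from 35.0% to 83.0% with a median of 65.2%, and all 73 hits carried the annotation of protein kinase activity. Members that share a hit may be pieces or copies of related transcripts and are not independent of each other. With counts summed per hit protein, 27 of 28 were lower in B, 25 at least 2-fold, with a median of -1.62.

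The kinases with the most counts had hits named tau-tubulin kinase 2. Unigene 31346 went from 20024 normalized counts in A to 4162 in B, a log2 ratio of -2.27 (-2.34 to -2.20). It aligned with residues 100 to 434 of an *A. suum* protein of 625 residues, at 46.1% identity. Unigene 207923 aligned with the same residues at 45.8% and went from 5105 to 1682 (-1.60, interval -1.72 to -1.49). This protein drew 9 unigenes, and all 9 were at least 2-fold lower, from -2.27 to -1.36, among them unigene 50212 with 3328 and 1297 (-1.36) and unigene 164471 with 3005 and 1036 (-1.54). Together they went from 39315 to 10266 normalized counts, so that they hold the largest part of the family's summed counts.

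Unigene 27981, at 80.3% identity to an *A. suum* tau-tubulin kinase 2 of 343 residues, went from 3162 to 949 (-1.74). A second unigene with that hit, 191532, went from 1561 to 513 (-1.60). The *T. canis* protein Tcan_10050, also a tau-tubulin kinase 2, was hit by 3 unigenes, all at least 2-fold lower. Of these unigene 7825 had 1424 and 166 normalized counts (-3.10, interval -3.45 to -2.78), the lowest ratio among members of the tau-tubulin kinase 2 name. As a name, tau-tubulin kinase 2 covered 38 unigenes with a median of -1.60, 35 of them at least 2-fold lower. Its lone member with more counts in B was unigene 169728, described next.

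Members with the same hit did not always move alike. Unigenes 19344, 119264 and 169728 aligned with nearly the same stretch of the *T. canis* protein Tcan_03234, at 56.0% to 56.1% identity. They had 2403, 729 and 2299 normalized counts in A and 479, 351 and 2369 in B. Their log2 ratios were thus -2.32, -1.05 and 0.04 (interval of the last -0.08 to 0.16). How reads that fit several unigenes were assigned is not given in the sources used here, so the split between such copies is uncertain; summed over the 3, the ratio was -0.76.

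The 35 unigenes named tau-tubulin kinase 1 had a median of -1.49, with 26 at least 2-fold lower. Unigene 27306 went from 2454 to 634 (-1.95), though its name rests on 100 aligned residues at 35.0% identity. Unigene 88159, at 63.7% identity to Tcan_02568, went from 2332 to 630 (-1.89, interval -2.07 to -1.71). The lowest ratio of the family was that of unigene 110799, from 188 to 19.7 (-3.19), again a weak hit of 36.4% identity.

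The unigenes with the longest alignments of the family changed less. Tcan_16752, a tau-tubulin kinase 1 of 874 residues, was hit by 4 unigenes over 715 to 892 alignment positions. Unigene 32190 had 1318 normalized counts in A and 696 in B, unigene 115510 had 1148 and 780, unigene 16111 had 848 and 473, and unigene 166013 had 630 and 522. All 4 log2 ratios, from -0.92 to -0.27, were inside 2-fold, and their summed counts gave -0.67, near the median of all unigenes with ascaridid hits. Against that, the 2 unigenes of an *A. suum* tau-tubulin kinase 1 of 463 residues went from 2154 to 708 (-1.60) and from 1892 to 735 (-1.36).

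The next proteins by number of unigenes lay between these. An *A. suum* tau-tubulin kinase 2 of 269 residues was hit by 8 unigenes at 68.3% to 71.8% identity, which together went from 2865 to 1222 normalized counts (-1.23). Of the 8, 6 were at least 2-fold lower, unigene 210778 most (348 to 104, -1.73), and unigene 103429, with 103 and 87.8, was nearly level (-0.23, interval -0.87 to 0.36). Tcan_14713, a tau-tubulin kinase 1, was hit by 5 unigenes that divided: unigenes 47415 (881 to 292) and 186314 (354 to 122) were at -1.59 and -1.53, and unigenes 178146 (134 to 69.0), 19383 (433 to 238) and 152804 (268 to 190) at -0.95, -0.86 and -0.49.

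All members of several other groups were at least 2-fold lower. The 4 unigenes of an *A. suum* tau-tubulin kinase 1 of 350 residues ran from -2.16 to -1.43, with unigene 173352 at 959 and 214 normalized counts. The 4 of Tcan_13781, a tau-tubulin kinase 1, ran from -1.94 to -1.31, with unigene 2663 at 943 and 245. The 3 of Tcan_18318, a tau-tubulin kinase 2, ran from -2.12 to -1.65, with unigene 151449 at 668 and 153. Tcan_15740, also a tau-tubulin kinase 2, had 4 unigenes from -2.77 to -1.12, the lowest of which, unigene 43016, had 114 and 15.8. The groups on different proteins thus overlapped, and no group of 2 or more unigenes had all its members higher in B.

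Higher in B were 3 kinase unigenes. Besides unigene 169728 these were unigene 114287, with 45.6 and 71.0 normalized counts (0.63), and unigene 171027, with 10.1 and 27.6 (1.37), the member at least 2-fold higher. The last 2 aligned with 77 and 40 residues of their hits, and both their intervals held 0 (-0.13 to 1.51 and -0.11 to 3.27).

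**Figure D2:**
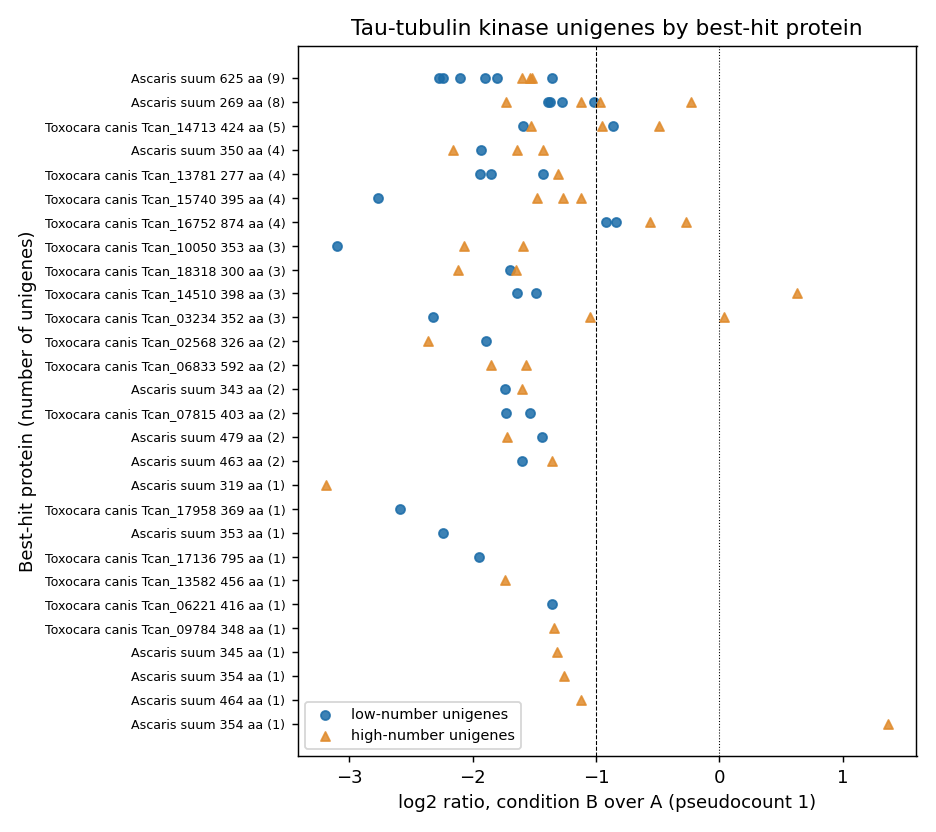
Log2 ratio of B over A (horizontal, pseudocount 1) of each tau-tubulin kinase unigene, by best-hit protein with its length in residues (vertical, number of unigenes in parentheses); circles are unigenes numbered up to 100753 and triangles those numbered higher, and the dashed and dotted lines mark -1 and 0. The 9 unigenes on the *A. suum* protein of 625 residues lie between -2.27 and -1.36, while the 4 on Tcan_16752 lie between -0.92 and -0.27.

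Kelch-like protein 10 unigenes fell on 6 proteins. Those with long alignments to *A. suum* proteins were among the lower ones. Unigene 34144, which aligned over 527 positions at 48.8% identity, went from 642 normalized counts in A to 119 in B (-2.42). Unigene 56622, over 566 positions at 45.2%, went from 597 to 117 (-2.34). Unigene 76559, over 435 positions at 49.0%, went from 410 to 102, a 4.03-fold lower value. These 3 had the most counts of the family and lay close together, all at least 4-fold lower.

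The other 5 unigenes with *A. suum* hits had shorter alignments and smaller differences. Unigene 213649 had 137 and 62.1 normalized counts (-1.13), unigene 140589 had 83.2 and 37.5 (-1.13) and unigene 167146 had 186 and 119 (-0.63). Unigene 113627 was level, with 58.8 and 62.1 (0.08). Unigene 115798, an alignment of 70 residues, was the member at least 2-fold higher, with 6.10 and 22.7 (1.74).

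The remaining 10 shared a hit on Tcan_14722, a *T. canis* Kelch-like protein 10 of 629 residues, and formed 2 separate sets. Every one of the 10 alignments began at residue 29 and ended between residues 109 and 180, at 34.5% to 41.5% identity, so the name rests on the first part of that protein alone. Of the 10 unigenes, 6 had 122 to 233 normalized counts in A and 4.93 to 10.8 in B, with log2 ratios from -5.04 to -4.11. Lowest was unigene 752, from 194 to 4.93 (-5.04), on 5 reads in B. The other 4 had 125 to 204 in A and 72.0 to 117 in B, with log2 ratios from -1.05 to -0.25. The 2 sets overlap in A. They were told apart by these values, so that they do not overlap in B follows from how they were formed. At least 16-fold lower in B, as these 6 were, were 0.57% of all unigenes and 0.289% of annotated ones. Under scaling on total counts 3 of the 6 were at least 16-fold lower, and unigenes 21770, 58880 and 82468 were at -3.95, -3.82 and -3.76.

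**Figure D3:**
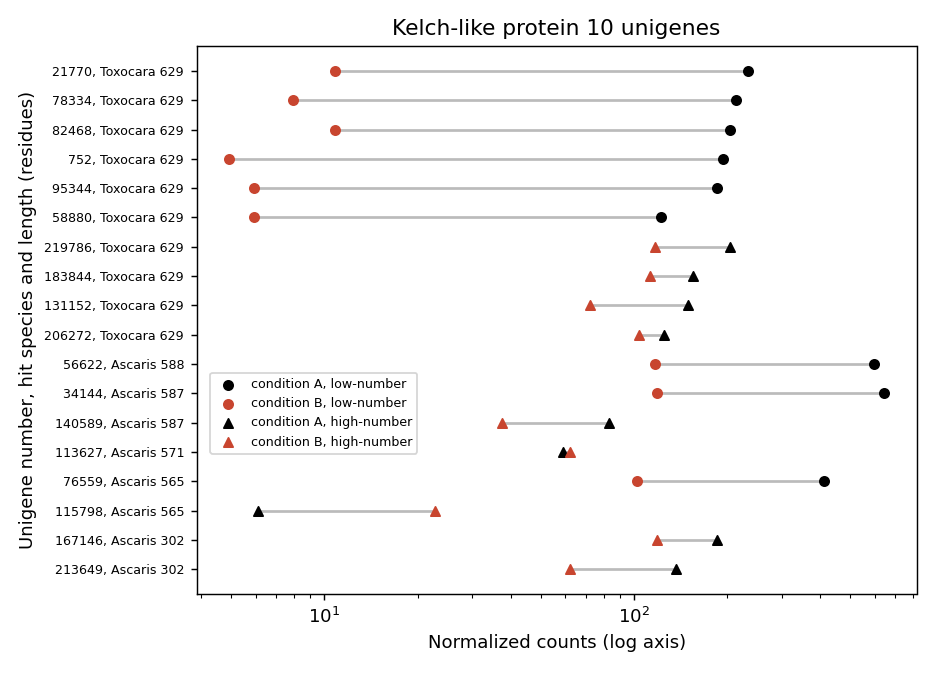
Normalized counts (log axis) of the 18 Kelch-like protein 10 unigenes in A (black) and B (red), by unigene number with the species and length of the hit protein; circles are unigenes numbered up to 100753 and triangles those numbered higher. The 6 low-number unigenes on the *T. canis* protein of 629 residues drop to 4.93 to 10.8 in B, while the 4 high-number ones stay at 72.0 to 117.

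The sets differed in where their unigenes stand in the table's numbering, a measure looked at after the values were seen. Across the whole table the log2 ratio changed at 1 place in the numbering: the 73846 unigenes numbered up to 100753 had a median of -0.79 and the 76952 numbered higher had 1.35, with no minimum count. Medians in windows of 10000 numbers ran from -0.80 to -0.77 before the change and from 1.27 to 1.40 after it. At least 2-fold lower in B were 47.8% of low-number unigenes and 9.77% of high-number ones, and at least 2-fold higher 12.8% and 55.0%. All 6 strongly lower unigenes on Tcan_14722 carried low numbers and all 4 others carried high numbers. Of the Kelch-like protein 10 unigenes with *A. suum* hits, the 3 with long alignments carried low numbers and the 5 others high numbers. Alignment length and numbering therefore cannot be told apart there. A ratio at least 16-fold lower was held by 1.23% of low-number and 0.00972% of high-number unigenes.

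By number, the 9 low-number Kelch-like protein 10 unigenes had a median of -4.15 and were all at least 4-fold lower, against 19.7% of low-number unigenes. The 9 high-number ones had a median of -0.63, with 3 at least 2-fold lower and 0 at least 4-fold lower, against 1.31% of high-number unigenes. Summed counts gave log2 ratios of -2.86 and -0.64, so the value for this family moved with the numbering by more than under any other alternative tried. Tau-tubulin kinases were lower on both sides. The 34 low-number kinases had a median of -1.71, with 31 (91.2%) at least 2-fold lower, and the 39 high-number kinases -1.43, with 30 (76.9%) and 1 at least 2-fold higher. For major sperm protein the medians were -1.88 over 87 unigenes and -1.52 over 72. The part of the numbering in these results was not tested.

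Unigenes that aligned with the same residues of the same protein could be set side by side across the 2 sides of the numbering. For Kelch-like protein 10 there were 3 such pairs. Unigene 82468 went from 204 to 10.8 normalized counts and its partner 206272 from 125 to 104; unigene 58880 went from 122 to 5.92 and 219786 from 204 to 117; unigene 21770 went from 233 to 10.8 and 183844 from 155 to 113. The high-number partner was higher in log2 ratio by 3.36 to 3.86. For the kinases there were 10 pairs, with the high-number partner less low in 9 and a median difference of 0.43 (range -0.10 to 1.02). These pairs are not separate comparisons, since unigenes 34622 and 189365 each stand in 2 of them, and unigene 34622 had 83.0% identity to its hit against 56.2% for both its partners. The widest was on Tcan_10050, where unigene 7825 was at -3.10 and unigene 153115, with 892 and 211 normalized counts, at -2.07.

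**Figure D4:**
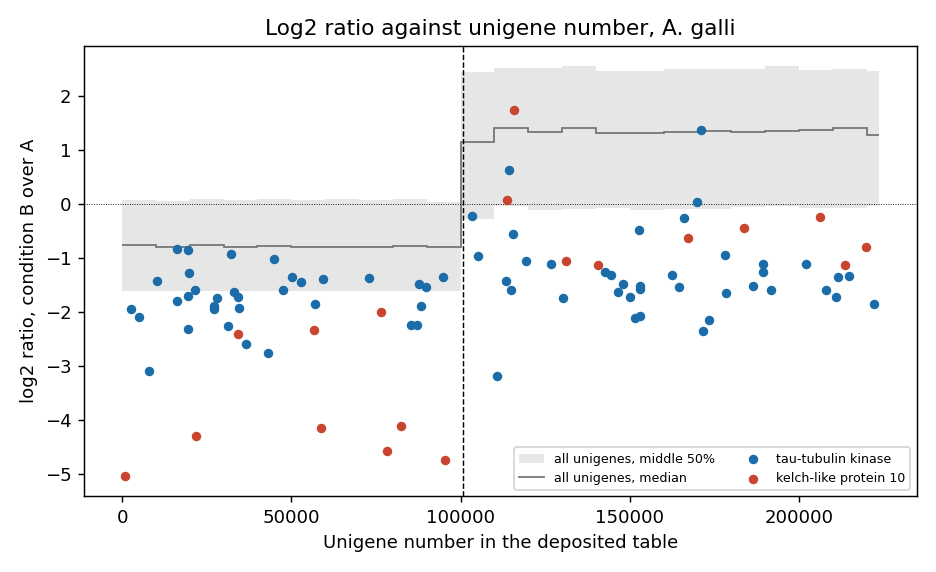
Log2 ratio of B over A (vertical) against unigene number (horizontal) for tau-tubulin kinases and Kelch-like protein 10, over the median and middle 50% of all unigenes in windows of 10000 numbers (grey); the dashed line marks number 100753. The grey median steps from about -0.8 to 1.35 there; the kinases lie mostly below it on both sides, and the Kelch-like protein 10 unigenes under -4 are all on the left.

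Relatives of both families gave mixed values, some about as low as those of the tau-tubulin kinases. The remaining casein kinase 1 family, kinases of the same superfamily with roles in many signalling pathways, had a median of -1.31 over 13 unigenes, with 7 at least 2-fold lower. By product it was divided: 3 unigenes named casein kinase I were at -1.55 to -1.31, and 4 of isoform gamma-1 at -0.06 to 0.42. Its unigene with the most counts, casein kinase I isoform alpha, went from 8744 to 5814 (-0.59). All other protein kinases had a median of -0.61. At least 2-fold lower were 240 of 708 (33.9%), against 27.3% of all unigenes and 30.1% of those with ascaridid hits. The one with the most counts, a tyrosine-protein kinase, went from 33160 to 12629 (-1.39). By name this list was divided. The 102 unigenes named tyrosine-protein kinase (EC 2.7.10.2) had a median of -1.54, as the tau-tubulin kinases did, with 76 at least 2-fold lower. The 21 named only serine/threonine-protein kinase were at -1.42, with 13, and the 26 named mitogen-activated protein kinase (EC 2.7.11.24) at -0.24, with 1. Among products of that list named for a branch of the same superfamily, singled out after their values were seen, 4 unigenes of CK1/WORM6 protein kinase were all at least 2-fold lower (-1.48 to -1.14), and 3 of CK1/VRK protein kinase ran from -0.19 to 0.20.

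Other kelch proteins had a median of -0.30 over 25 unigenes (0.09 under scaling on total counts), with 4 at least 2-fold lower. These 4, named after their values were seen, were Kelch repeat-containing protein kel-10 (1489 to 212, -2.81), a Kelch domain-containing protein 10 (1368 to 429, -1.67), a Kelch repeat and BTB domain-containing protein (236 to 91.7, -1.36) and a Kelch domain-containing protein 1 (508 to 244, -1.06). Kelch-like protein 18, which has the most counts of this list, was at -0.64. Cullin ubiquitin ligase parts, a list that also takes in products named for a BTB/POZ domain, had a median of -0.43 over 62 unigenes. At least 2-fold lower were 10 of 61 (16.4%). The names of this list with the most unigenes were BTB/POZ domain-containing protein KCTD16 (8, median -0.15) and BTB/POZ domain-containing protein 6 (7, median -0.39). Cullin-1, a scaffold of cullin ligases, was at -0.92. Cullin-3, the partner of Kelch-like protein 10 in the mouse, had 3 unigenes, from -1.34 to -0.86, with 954 to 1219 normalized counts in A and 476 to 631 in B. Tubulin chains, the microtubule subunits, had a median of -0.66 over 45 unigenes, and the beta chain with the most counts went from 132205 to 86664 (-0.61).

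Other products with sperm or testis in their names had a median of -0.49 over 51 unigenes. At least 2-fold lower were 13 of 49 (26.5%), against 27.3% of all unigenes and 30.1% of those with ascaridid hits. Of the 51, 10 were enzymes of spermidine or spermine, polyamines found in all cells, that match by spelling alone; without them the median was -0.63 over 41. Sperm-specific class P protein 32, a relative of major sperm protein, had the most counts of the list and went from 29542 to 11041 (-1.42). The 2 major sperm protein unigenes with the most counts were at -1.83 and -1.51.

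**Figure D5:**
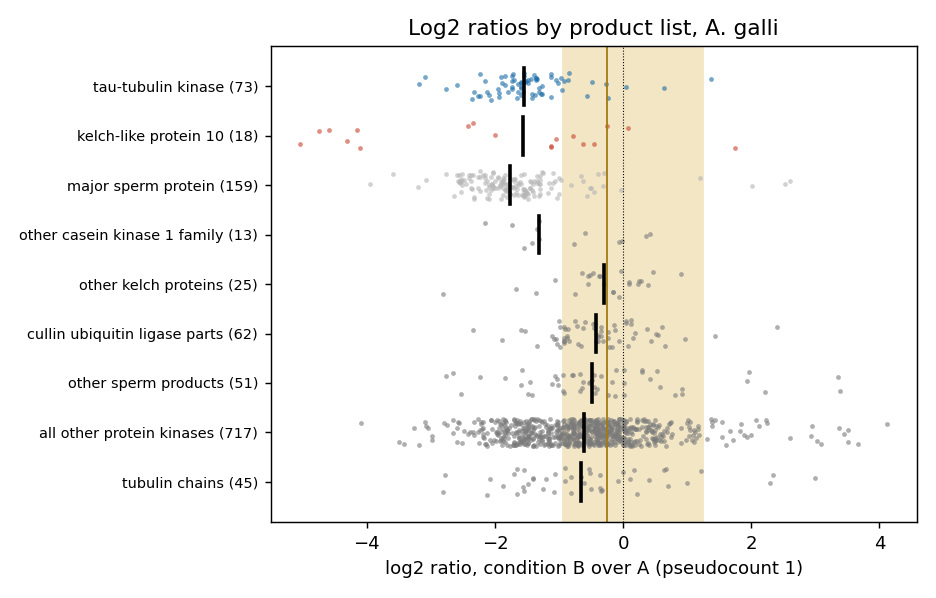
Log2 ratios of B over A (horizontal, pseudocount 1) of unigenes whose mean reached 10 normalized counts, by product list (number of unigenes in parentheses); 1 point is 1 unigene and black bars are medians. The shaded band and line give the middle 50% and median (-0.25) of all annotated unigenes; the medians of tau-tubulin kinase (-1.54), Kelch-like protein 10 (-1.57) and major sperm protein (-1.77) lie left of the band, as does that of other casein kinase 1 family (-1.31).

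In the authors' deposited table, 13 of the 73 tau-tubulin kinase unigenes are marked down and 60 neutral, and 9 of the 18 Kelch-like protein 10 unigenes down and 9 neutral. Of all 150798 unigenes in the authors' deposited table, 10.1% are marked down and 21.8% up. The lowest unadjusted p of the members in the authors' deposited table is 0.0135, for unigene 752, and every adjusted p of the members there is 1.

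The second nematode of the series, *Trichostrongylus colubriformis* from sheep, had 1 unigene named tau-tubulin kinase 1 and 0 named Kelch-like protein 10. That unigene had 4.0 normalized counts in A, on 2 reads, and 977 in B (log2 ratio 7.61, interval 5.45 to 13.24); its conditions A and B need not be those of *A. galli*.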

How the data were processed

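Per the file headers, the authors' deposited table holds normalized counts of each unigene (scores, mostly rounded) for conditions A and B, a fold ratio with log2, raw and adjusted p-values, and details of the best protein match such as percent identity. DESeq is named in the submitters' processing notes; 1 stray row with a bowtie2 header was left out. How unigenes were assembled and counted is not given in the sources used here. No unigene is listed at 0 in either condition. The numbering runs to 223475 while 150798 unigenes are listed, and why the other numbers are missing was not tested. Transcripts left out of the table are in none of the counts and shares given here. The header does not say which condition is the control, so the labelled groups could not be tied to columns.

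Log2 ratios were computed from the normalized counts with a pseudocount of 1. Medians took unigenes whose mean reached 10 normalized counts, except those along the numbering, which had no minimum, and counts of 2-fold differences those reaching 20 in A or B. Whole reads came from the step size of the values (100% of values up to 200 were whole within 0.1 read); most counts were even (71.7% and 75.2%), so intervals used reads divided by 2. With 1 library per condition no test was made. Lists were matched by product name. Named unigenes were the 8 kinases and 5 Kelch-like protein 10 unigenes with the most counts, the lowest and highest ratio of each family, members at least 2-fold higher, the 2 major sperm protein unigenes and the 1 unigene of each other list with the most counts; further unigenes were named after their values were seen. Members and lists were chosen with earlier results of these data known. The scripts were tested on simulated data. Software was Python 3.11.15, numpy 2.4.6, pandas 2.3.3 and scipy 1.17.1. Alternatives were other scalings, pseudocounts, minimum counts and subsets of hits; the split by unigene number and the sperm list without polyamine names were added after the data were seen.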

Additional observations from a re-analysis of the deposited data

How the results depend on the processing

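No median of the 2 families and no summed ratio changed sign under the alternatives tried for them. Scaling on total counts gave medians of -1.16 for tau-tubulin kinases, -1.39 for major sperm protein, -0.93 for the other casein kinase 1 family, -0.05 for cullin ubiquitin ligase parts, -0.11 for other sperm products and -0.24 for all other protein kinases, and summed ratios of -1.24 for tau-tubulin kinases and -1.45 for Kelch-like protein 10. Scaling on total counts also turned the median of other kelch proteins to 0.09. TMM scaling (a trimmed mean of the log ratios) gave -1.49 for the summed kinases. With hits of at least 50% identity the Kelch-like protein 10 median was -0.88. It then rested on the 2 unigenes of an *A. suum* protein of 302 residues (50.9% and 60.8%). All other hits of that family, on Tcan_14722 and on *A. suum* proteins, were below that identity. A minimum mean of 100 gave -1.04 for the other casein kinase 1 family. At 4-fold, 13 kinases and 11163 of all unigenes were lower, and with a minimum of 100 in the higher condition 16786 of all unigenes were at least 2-fold lower.

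The split by unigene number was added after the data were seen. With low-number unigenes alone the Kelch-like protein 10 median was -4.15 (summed -2.86), the summed kinases -1.87 and cullin ubiquitin ligase parts -0.92. With high-number unigenes alone the values were -0.63 for Kelch-like protein 10 (summed -0.64), -1.23 for the summed kinases, -1.52 for major sperm protein, -0.95 for the other casein kinase 1 family, -0.16 for cullin ubiquitin ligase parts, 0.01 for other sperm products and 0.09 for other kelch proteins, where the sign changed for both, and -0.23 for all other protein kinases; the cause was not tested. Of 25 named unigenes, scaling on total counts moved 16 beyond their counting interval, TMM scaling 11 and a pseudocount of 5 moved 0; 0 were counted as reversed. No paired analysis was possible because each condition has 1 library, and leaving out a replicate was not possible for the same reason. Depth limits the 6 lowest Kelch-like protein 10 unigenes, which rest on 5 to 11 reads in condition B.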

Other observations

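Testis-specific serine/threonine-protein kinases, which in mammals act in the late steps of sperm formation, were looked at after the values were seen. All 8 unigenes with these names had fewer normalized counts in condition B, with a median log2 ratio of -1.09, and 6 were at least 2-fold lower. Of the 28178 unigenes with ascaridid hits, as these 8 had, 21170 were lower. Of those reaching 20 normalized counts in A or B, 30.1% were at least 2-fold lower. Not all testis kinases of the sperm list were low. Its 5 unigenes of dual specificity testis-specific protein kinase 2 had a median of 0.01 (-0.46 to 0.42), with 0 at least 2-fold lower. Testis-specific serine/threonine-protein kinase 4 went from 1116.5 to 176 normalized counts (-2.66), though at 33.9% identity to its hit. The 6 unigenes of testis-specific serine/threonine-protein kinase 2 ran from -1.84 to -0.94. Summed over the 8 unigenes, 3888 normalized counts stood against 1306 (-1.57). The 3 low-number unigenes were at -2.66, -1.84 and -1.04, and the 5 high-number ones had a median of -1.07.

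Of 389 product names with at least 10 measured unigenes, uncharacterized products aside, Kelch-like protein 10 had the 2nd lowest median log2 ratio (-2.0). That name covers 17 unigenes, without the member named as a fragment. Major sperm protein had the 7th lowest (-1.80), tau-tubulin kinase 2 the 14th (-1.60) and tau-tubulin kinase 1 the 18th (-1.49). Lowest was arginase, which splits arginine, with -2.04 over 12 unigenes. Serine/threonine-protein phosphatase, at -1.70 over 138 unigenes, and tyrosine-protein kinase, at -1.54 over 102, were among the names around the tau-tubulin kinases. These ranks describe 1 pair of libraries and use the same ratios by which the names of both families were chosen.

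The table of *T. colubriformis* also had a place in its numbering where the log2 ratio changed most. The 16783 unigenes numbered up to 34722 had a median of -5.01, and the 27027 numbered higher had 2.36. Its tau-tubulin kinase unigene is number 81696, on the side of the higher median.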
